A study of Mus musculus with 12 samples.

Results

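A run of genes on mouse chromosome 10, between positions 31332376 and 63381704 (GRCm38, 32.0 Mb), is described here in *Cidea* knockout (KO) and wild-type (WT) mouse embryonic stem cells (ESCs). The members are the genes that lie fully inside these bounds and reached 10 or more estimated counts in at least 2 of 12 libraries, with 5 genes of the stretch left out by the rule (*Nodal*, *Tet1*, *Lin28b*, *Atg5* and *Lama4*). There are 169 such genes of 35580 in the tables, 143 protein-coding and 26 processed pseudogenes. The stretch was chosen by the low KO/WT ratios measured in these libraries, so every KO/WT value of a member is given as a description and carries no test. The comparisons that the choice did not use are the change with time, the difference of that change between the genotypes, and genes elsewhere whose products work with the members.

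In a diploid cell most genes are read from both homologues, and when a segment of a chromosome is lost or gained, the RNA of most genes on it is known to move roughly with the number of copies. Some genes depart from that proportion, for example where the product restrains its own synthesis. A ratio of 2 to 3 is that of 2 copies against 3, and 1 to 2 that of 1 copy against 2. DNA copy number was not measured in these libraries and was not tested here.

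RNA was sequenced from the parental R1 line, which is wild type, and from R1 cells with both alleles of *Cidea* deleted, a gene for a lipid droplet fusion protein. Cells of each genotype were taken as ESCs in medium with FBS and LIF (0 h) and as 3D spheroids in growth factor-reduced Matrigel with FBS and without LIF at 24 h and 48 h. The labels describe these spheroids as embedded, while the study's methods describe culture on a Matrigel coat, under medium with Matrigel added, for molecular experiments. Each of the 6 combinations of genotype and time had 2 libraries. The KO libraries come from 1 clone by a figure legend of the study's supplement, and loss of *Cidea* and any other difference of that clone cannot be told apart.

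*Cidea* had 20 to 117 counts in the WT libraries and 0 in each of the 6 KO libraries, which allows at most 3 counts. Depth was 29.0 to 38.5 M estimated counts per library. Summed levels of 8 pluripotent cell markers were 3958 to 5671 TPM (transcript abundance scaled for length and depth) in WT and 4004 to 5770 TPM in KO. Of 6 fibroblast markers 2 (*Col3a1* and *Postn*) did not reach 10 counts in 2 libraries, and the sum of the list was 15.8 to 25.5 TPM in WT and 7.78 to 23.2 TPM in KO. The 6 primitive endoderm markers summed to 3.59 to 9.37 TPM in WT and 3.21 to 7.73 TPM in KO, and the 6 trophectoderm markers to 16.2 to 27.2 TPM in WT and 17.4 to 18.7 TPM in KO. KO 24 h replicate 1 stood apart, with 15577 genes at 1 count or more against 17634 to 19825 in the others.

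Across the stretch, RNA was lower in KO at every time. The members held 0.676% to 0.715% of all counts in the WT libraries and 0.438% to 0.470% in the KO libraries, and the genotypes did not overlap. Their summed level was 4083 ± 91.6 TPM in WT and 2706 ± 17.6 TPM in KO at 0 h (SD, n = 2 per group). At 24 h it was 3954 ± 58.1 TPM in WT and 2726 ± 70.8 TPM in KO, and at 48 h 3886 ± 87.0 TPM in WT and 2541 ± 41.5 TPM in KO. In bulk RNA, fewer cells that express a gene and less RNA per cell cannot be told apart.

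**Figure D1:**
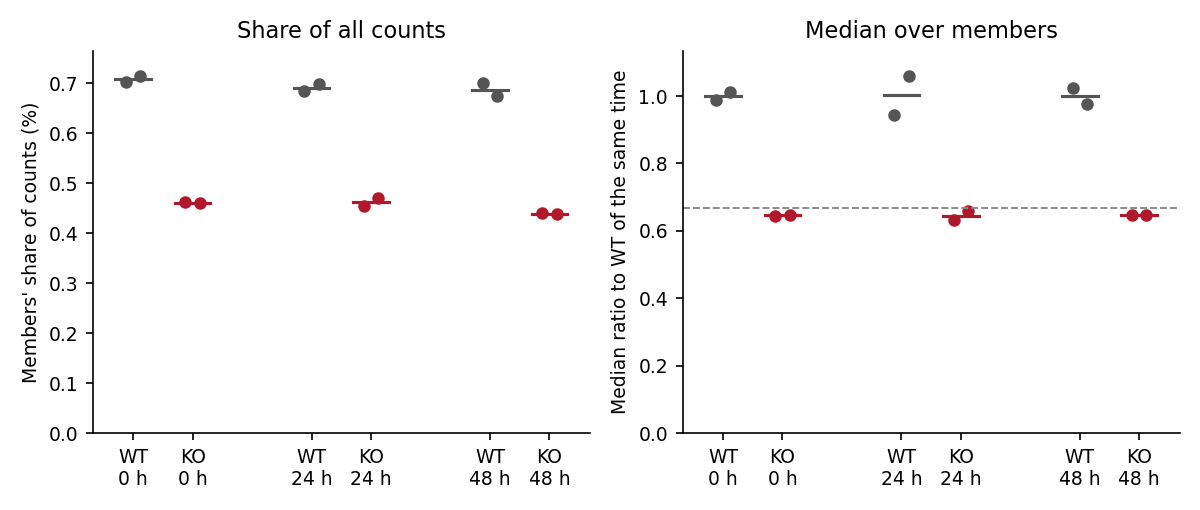
Each point is a library and each bar the mean of its 2 libraries, for WT (grey) and KO (red) at 0, 24 and 48 h. The left panel gives the members' share of all counts in percent, and the right panel the median over 121 members of the ratio to the mean WT level of the same time, with a dashed line at 2 to 3. The KO libraries lie at 0.632 to 0.658 in the right panel, below every WT library.

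Of the 169 members 167 had enough counts for the fit over all genes, and *Fabp7* and *Hkdc1* did not. The median KO/WT difference of the 167 was -0.63 at 0 h, -0.62 at 24 h and -0.61 at 48 h on the log2 scale, and -0.65 over all times, a ratio of 0.639. Over the same fit, the 17252 genes tested outside the stretch had a median of -0.0005, and the 658 on the rest of chromosome 10 a median of -0.0037. Medians of the 20 chromosomes outside the stretch ran from -0.03 to 0.05. At an adjusted p under 0.05 in edgeR's quasi-likelihood test, 47 members were lower in KO at 0 h, where 1.26% of all genes tested were called and 0.987% were lower. The count was 57 at 24 h, where 1.46% of all genes were called and 1.02% were lower. It was 47 at 48 h, where 0.671% were called and 0.476% were lower. Over all times it was 88, where 5.03% were called and 2.84% were lower. Since the stretch was chosen by this contrast, nothing is read from these counts. Without KO 24 h replicate 1 the median was -0.59 at 24 h and -0.63 over all times. Without KO 24 h replicate 2, which leaves the library that stood apart as the only one of its group, the medians were -0.74 and -0.72.

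The spread, the position and the departures of single members are described for the 121 tested members whose average level reached a log2 CPM (counts scaled to library size) of 1, because ratios of the other 46 rest on few reads. Medians by shared sequence and by function list take in all 167. Of the 121, 120 had a KO/WT ratio below 1 over all times and 109 at each of the 3 times. KO libraries lay below both WT libraries at all 3 times in 91 members, at 2 times in 16, at 1 time in 10 and at no time in 4. Among 12153 genes outside the stretch at the same level, 3.38% had their KO libraries below at all 3 times. The interquartile range of the 121 members was 0.23 on the log2 scale, from -0.77 to -0.54, and that of the 12153 genes outside was 0.21. By this pooled range the members were spread about their median about as widely as other genes about theirs. By level this differed. The range was 0.35 in members against 0.42 outside at a log2 CPM of 1 to 4. It was 0.19 against 0.19 from 4 to 6, and 0.17 against 0.13 above 6, where members were spread more widely.

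**Figure D2:**
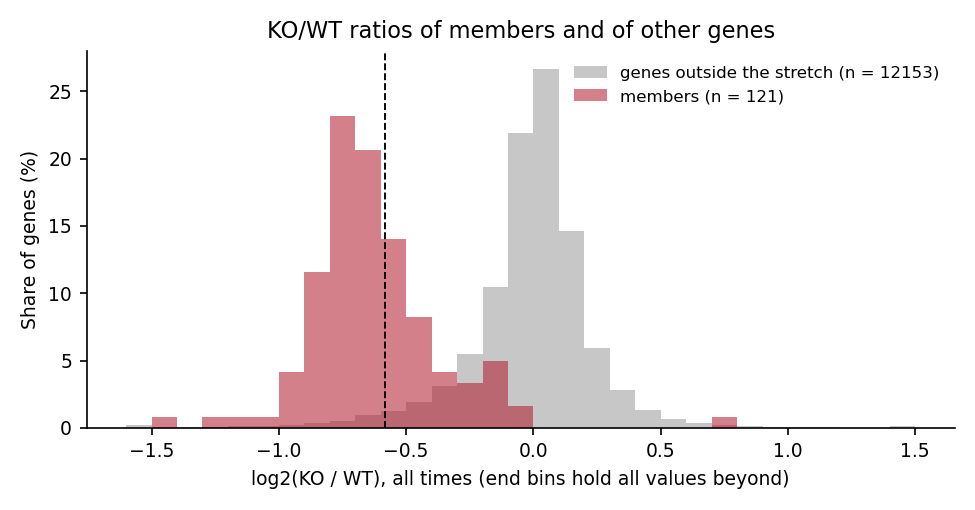
The share of genes (percent, y axis) by log2 KO/WT over all times (x axis, bins of 0.1), for 121 members in red and 12153 genes outside the stretch in grey, with the dashed line at a ratio of 2 to 3. Members centre on -0.67 with 1 gene to the right of 0, and the other genes centre on 0.01.

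The members' ratio stood near 2 to 3, which is -0.585 on the log2 scale. Of the 121, 82 (67.8%) lay within 2 standard errors of it, 95 (78.5%) within 2 of the members' own median, 33 (27.3%) within 2 of a ratio of 1 to 2, and 15 (12.4%) within 2 of equality. A lowly expressed gene has a wide error and can lie within 2 of several of these. The median of the 121 was -0.67. The stretch was chosen by these ratios and no share of genes outside was set beside the counts, so nothing is read from them. The ratio changed little with the level of the gene. The median was -0.65 in the 45 members with an average log2 CPM of 1 to 4, -0.68 in 50 members from 4 to 6, and -0.60 in the 26 above 6. Genes outside the stretch in the same 3 ranges had medians of -0.03, 0.02 and 0.02.

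The ratio was below 1 along the length of the stretch. In 8 windows of 4.0 Mb, medians from the first to the last were -0.61, -0.53, -0.73, -0.64, -0.40, -0.50, -0.64 and -0.71, from 4 to 42 members each. The fifth window, at -0.40, held 7 members, 6 of them pseudogenes.

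The bounds lie between genes that differ in ratio at the start, and within a gap at the end. *Hddc2*, which codes for an HD domain phosphatase, ends 4.17 kb before the start. Its level in WT was 55.1 and 45.2 TPM at 0 h, 42.4 and 48.8 at 24 h, and 50.6 and 47.4 at 48 h. In KO it was 46.4 and 49.0, 45.6 and 44.8, and 43.0 and 42.5 TPM at the same times, a log2 difference of -0.12 (SE 0.09). *Tpd52l1*, the first member, had -0.74 (SE 0.14), *Rnf217* -0.16 (SE 0.33) and *Gm47842* -0.46 (SE 0.32).

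At the far end the last members *Mypn*, *Herc4* and *Sirt1* had -0.63 (SE 0.18), -0.71 (SE 0.06) and -0.71 (SE 0.05). *Dnajc12*, a co-chaperone gene that begins 0.739 kb beyond the bound and is no member, had -0.78 (SE 0.21) over all times. That mean was as low as those of the members beside it. Its differences were -0.17 (SE 0.35) at 0 h, -1.11 (SE 0.36) at 24 h and -1.05 (SE 0.36) at 48 h. Those of *Sirt1* were -0.72, -0.63 and -0.76. For *Dnajc12* a change of the difference from 0 h was not called. It was -0.95 (SE 0.50, adjusted p = 0.85 in edgeR) at 24 h and -0.89 (SE 0.50, adjusted p = 0.92 in edgeR) at 48 h. *Dnajc12* stood at 9.78 and 11.96 TPM in WT and 5.24 and 10.9 TPM in KO at 0 h, where the genotypes overlapped in TPM. In CPM they were narrowly apart at 0 h, with 5.47 and 6.11 in WT against 5.15 and 5.18 in KO. At 48 h it was 12.03 and 11.6 TPM in WT against 3.28 and 2.22 TPM in KO. The next gene that was measured well, *Reep3*, lies 3627 kb further on and had 0.06 (SE 0.10). *Lrrtm3* between them was near 0 in most libraries, so where the low ratio ends within that gap was not resolved. The nearest 20 genes of like level before the stretch had a median of -0.08 and the nearest 20 after it 0.03.

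**Figure D3:**
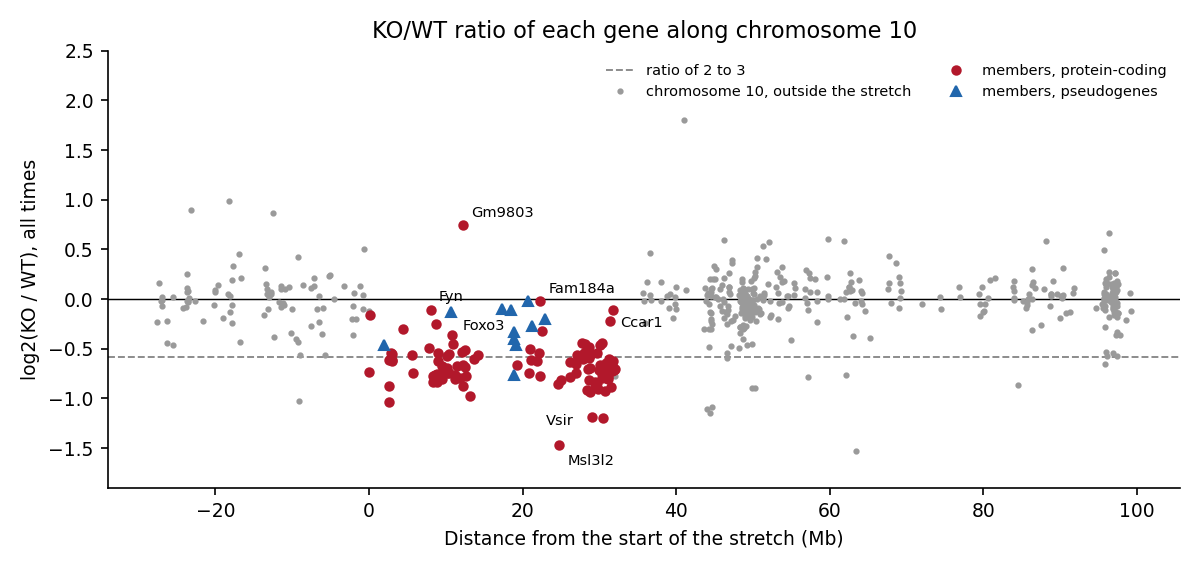
Each point is a gene of chromosome 10 whose average log2 CPM reached 1, at its distance in Mb from the start of the stretch (x axis) and its log2 KO/WT over all times (y axis; values beyond 1.8 are drawn at 1.8). Members lie from 0 to 32.0 Mb as red points (protein-coding) and blue triangles (pseudogenes) around the dashed line at 2 to 3, and grey genes on either side lie around 0.

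A member was called departing where its ratio over all times lay 0.5 or more (log2) from the members' median of -0.65 and it lay on the same side of that time's median at 0, 24 and 48 h. There were 8 such members of 121 (6.61%), against 4.53% of the 12153 genes outside set against their own median. They are 4 protein-coding genes and 4 pseudogenes, 2 of them below the common ratio and 6 above it. Just inside the limit stood *Gm9855*, 0.52 above the median. Just outside stood *Rnf217* at 0.49 above it. *Fyn* and *Pbld1* lay 0.54 above it over all times but crossed that of a single time.

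Sequence shared with other genes went along with many of the high ratios. Kallisto divides a read that fits several transcripts between them, and it matches reads by words of 31 bases. Of the 8 departing members 5 shared 25% or more of their words with genes outside the stretch, where 14 of all 121 did. Over the 167 tested members, the median ratio was -0.31 in the 25 that shared 25% or more, 21 of them pseudogenes, and -0.68 in the other 142. The part of shared reads in these ratios was not tested.

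*Gm9855*, a processed pseudogene on the minus strand at chr10:42054113-42055306, shares 90.5% of its words with genes outside the stretch. The gene it shares most with, at 83.4%, is *Tdg* at chr10:82629828-82650799 (plus strand), which codes for thymine DNA glycosylase and lies on chromosome 10 outside the stretch. A window of 30 bases from the GENCODE M21 transcript of each (GRCm38, transcript strand, 5′ to 3′) shows how little can separate their reads, with the base that differs in capitals.
Gm9855: accgtgacagaacagcaggtgcccgCagac
Tdg: accgtgacagaacagcaggtgcccgAagac
In WT, *Gm9855* stood at 75.6 and 83.5 TPM at 0 h, 101 and 93.8 at 24 h, and 128 and 121 at 48 h. In KO it was 68.8 and 69.1, 85.4 and 96.6, and 127 and 115 TPM. The genotypes were apart at 0 h and overlapped later, and the log2 difference over all times was -0.13 (SE 0.06).

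The other pseudogenes that departed were *Gm47626* at -0.02 (SE 0.07), *Gm48128* at -0.11 (SE 0.18) and *Gm47356* at -0.10 (SE 0.21). They share 87.7%, 98.4% and 81.6% of their words with genes outside the stretch. *Gm9803*, a short gene annotated as protein-coding, shares 90.4% of its words outside and 89.5% with *Pam16*, a gene for a mitochondrial import subunit on chromosome 16. It was the only one of the 121 members with a ratio above 1 over all times, at 0.75 (SE 0.27). Its level in WT was 17.8 and 50.5 TPM at 0 h, 15.5 and 26.4 at 24 h, and 8.17 and 7.47 at 48 h. In KO it was 28.5 and 43.2, 36.1 and 15.9, and 28.3 and 29.2 TPM, so that the genotypes overlapped at 0 h and 24 h and were apart at 48 h.

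**Figure D4:**
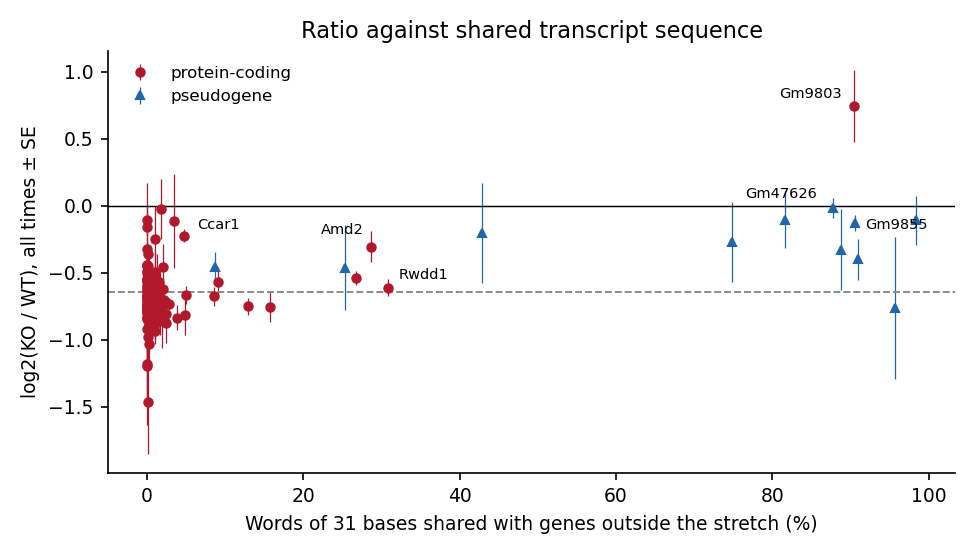
Each point is one of the 121 members, at the percent of its words of 31 bases that occur in transcripts of genes outside the stretch (x axis) and its log2 KO/WT over all times with its standard error (y axis). The dashed line is the members' median. Most members above 70% on the x axis lie above that line, and *Ccar1* lies above it at 4.8%.

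The departing members with little shared sequence were *Msl3l2*, *Vsir* and *Fam184a*. *Msl3l2*, a relative of the dosage compensation gene *Msl3*, had 3.50 and 4.03 TPM in WT and 1.43 and 2.06 TPM in KO at 0 h. It had 4.27 and 2.38 against 0.489 and 1.201 TPM at 24 h, and 1.32 and 2.84 against 0.240 and 1.07 TPM at 48 h. KO was lower throughout, with a log2 difference of -1.47 (SE 0.39). *Vsir*, which codes for the immune checkpoint protein VISTA, had 2.25 and 5.29 TPM in WT and 0.618 and 0.436 TPM in KO at 0 h, and its differences were -1.75, -1.11 and -0.69 at the 3 times. Over all times it had -1.18 (SE 0.25). *Fam184a* was at 1.44 to 6.07 TPM with overlapping genotypes at 0 h, and its differences were 0.54, -0.12 and -0.48, so its mean of -0.02 (SE 0.22) stands for no single time. Each of these 3 genes had a level of a few TPM.

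The distance rule favours genes with large errors, so the members farthest from the median in units of their own standard error were also listed, after their values were seen. There were 8 beyond 3 standard errors, 7 above the median and 1 below. Shared sequence of 25% or more marked 3 of them (*Gm9803*, *Gm9855* and *Gm47626*), and the other 5 were *Ccar1*, *Fyn*, *Foxo3*, *Sar1a* and *Unc5b*. The share of genes outside the stretch beyond 3 standard errors of their own median was not counted. Nothing is therefore read from the count of 8, and these genes are only described.

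*Ccar1*, a coactivator of nuclear receptors, was the farthest at 9.15 standard errors above the median. In WT it stood at 94.2 and 80.4 TPM at 0 h, 55.3 and 68.5 at 24 h, and 78.2 and 73.7 at 48 h. The KO values were 69.6 and 71.6, 67.1 and 66.6, and 63.8 and 56.8 TPM. The genotypes were apart at 0 h and 48 h and overlapped at 24 h, and the differences were -0.30, -0.07 and -0.30. Its mean of -0.22 (SE 0.05) is a ratio of 0.857, and 4.8% of its words occur outside the stretch.

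*Foxo3*, a transcription factor of the insulin and stress response, lay 4.77 standard errors above. It was at 18.5 and 20.96 TPM in WT and 15.9 and 17.7 TPM in KO at 0 h, 14.6 and 16.9 against 17.1 and 12.9 TPM at 24 h, and 16.8 and 18.8 against 11.8 and 11.4 TPM at 48 h. In TPM the genotypes overlapped at 24 h, and the ratio over all times was 0.780. *Sar1a*, the GTPase that starts COPII vesicles at the endoplasmic reticulum (ER), lay 3.597 standard errors above, with differences of -0.49, -0.44 and -0.41 and a ratio of 0.735.

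*Fyn*, a Src family kinase, had KO above WT at one time and below it at another. It had 9.86 and 7.43 TPM in WT and 13.8 and 13.6 TPM in KO at 0 h, so KO was higher. At 24 h it had 11.2 and 7.54 TPM in WT and 13.7 and 9.79 TPM in KO, which overlapped. By 48 h WT stood at 12.3 and 10.2 TPM and KO at 7.47 and 8.26 TPM, so KO was lower. The differences were 0.32, -0.02 and -0.62, the last being on the common ratio. The other 2 Src family kinases listed, *Src* and *Yes1* on other chromosomes, had 0.11 (SE 0.08) and -0.01 (SE 0.08) over all times.

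On the low side *Unc5b*, a netrin receptor, lay 3.31 standard errors below the median, with differences of -1.08, -0.81 and -0.75 and a ratio of 0.543. *Prdm1*, a transcriptional repressor needed for primordial germ cells, followed at 2.99 standard errors below. It had 11.5 and 11.3 TPM in WT and 4.98 and 5.22 TPM in KO at 0 h, and 5.32 and 4.76 against 2.92 and 2.24 TPM at 48 h. The genotypes were apart at each time and its ratio of 0.507 was close to 1 to 2.

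**Figure D5:**
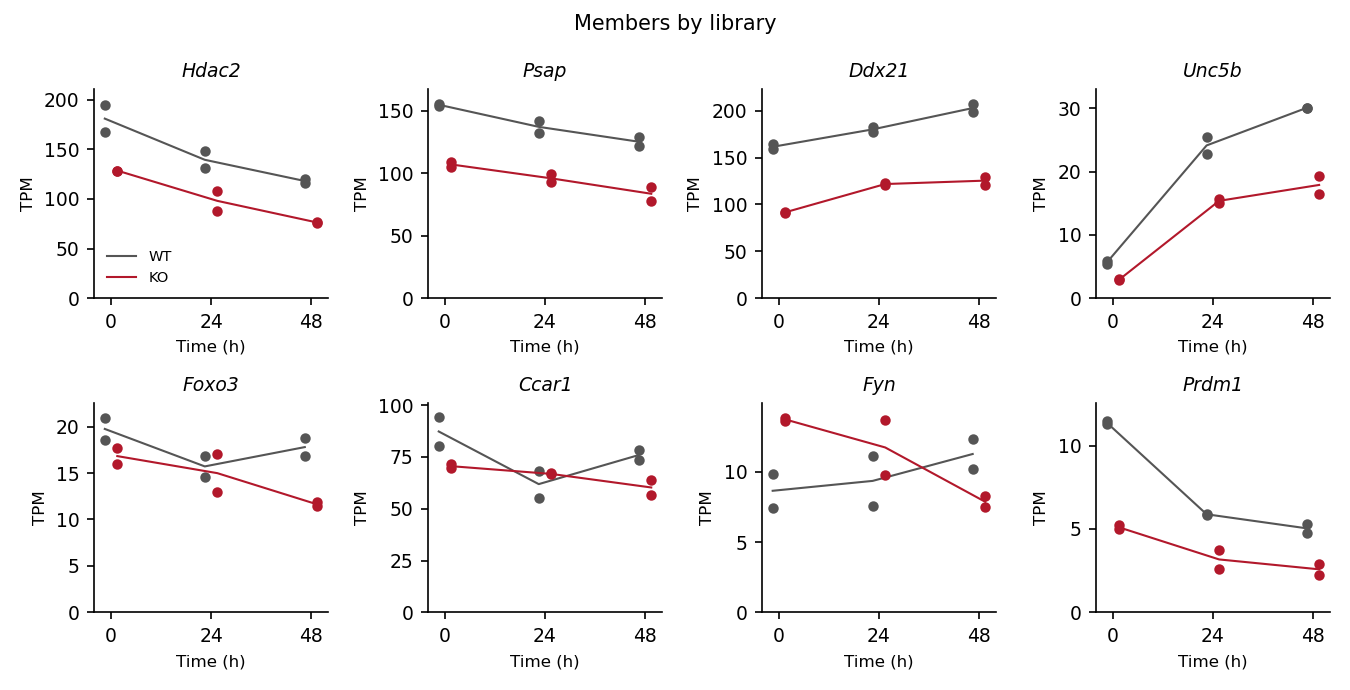
TPM (y axes, each from 0) at 0, 24 and 48 h (x axes) for 8 members, with a point per library and lines through the means of 2 libraries, WT in grey and KO in red. *Hdac2*, *Psap*, *Ddx21*, *Unc5b* and *Prdm1* keep KO below WT at each time, while *Foxo3* and *Ccar1* overlap at 24 h and the *Fyn* lines cross.

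The stretch holds genes of many functions, and 10 lists of its genes were described. The median of a list over all times ran from -0.56 to -0.75, and that of every list lay within 0.105 of the members' median. Of the listed genes 13 lay below a log2 CPM of 1. Their fitted differences ran from -3.81 (SE 1.52) for *Smpdl3a* to 1.37 (SE 0.84) for *Sh3rf3*, and for *Rfx6* the counts were too few to give one. Without these 13, list medians ran from -0.55 to -0.75. Genes of chromatin and transcription (17 tested) had a median of -0.64, and the 14 of them at a log2 CPM of 1 or more ran from -0.98 for *Prdm1* to -0.22 for *Ccar1*. *Hdac2*, a histone deacetylase of several corepressor complexes, was at 167 and 195 TPM in WT and 129 and 129 TPM in KO at 0 h. At 48 h it was at 116 and 120 against 75.4 and 77.1 TPM, and its ratio over all times was 0.679. *Asf1a*, a histone chaperone, had a ratio of 0.584, and *Gtf3c6*, a subunit of the RNA polymerase III factor TFIIIC, had 0.562. *Asf1a* shares 44.9% of its words with *Mcm9*, also a member.

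The list of DNA replication and repair (7 tested) had a median of -0.66 with a narrow range, from -0.87 for *Zup1* to -0.55 for *Mcm9*. *Ascc3* and *Ascc1*, which act in repair of alkylated DNA, had ratios of 0.630 and 0.663, and the nuclease and helicase gene *Dna2* 0.633. *Rwdd1*, also counted in this list, had 0.655 and shares 30.9% of its words with genes outside the stretch. Nothing shown here gives *Rwdd1* a part in replication or repair. RNA processing, ribosome assembly and translation (9 tested) had a median of -0.69. *Ddx21*, an RNA helicase of the nucleolus and one of the most abundant members, was at 159 and 164 TPM in WT and 91.1 and 92.0 TPM in KO at 0 h. At 48 h it was at 207 and 199 against 130 and 121 TPM, with a ratio of 0.613. *Rpf2*, a ribosome assembly factor, had 0.595.

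The list of mitochondrial proteins (10 tested) had the lowest median, -0.75. *Mcu*, the pore of the mitochondrial calcium uniporter, had a log2 ratio of -0.45 (SE 0.11). *Supv3l1*, a mitochondrial RNA helicase, had a ratio of 0.572, *Hk1*, a hexokinase that binds mitochondria, 0.576, and *Qrsl1*, a subunit that makes mitochondrial glutaminyl-tRNA, 0.621. The NAD-dependent deacetylase gene *Sirt1* was counted in this list, although its product is mainly nuclear. It also stands in the lists of transcription and growth. *Sirt1* had 108 and 117 TPM in WT and 68.5 and 71.9 TPM in KO at 0 h and a ratio of 0.613.

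Genes of ER, Golgi and endosome traffic (14 tested) had a median of -0.69, from -0.80 for *Ostm1* to -0.32 for *Man1a*. *Snx3*, a sorting nexin that works with retromer, was at 190 and 186 TPM in WT and 121 and 124 TPM in KO at 0 h. Its ratio was 0.588, that of the sialomucin gene *Cd164* 0.671 and that of *Serinc1* 0.580. The list of sphingolipid, lysosome and glycan genes (10 tested) had a median of -0.62. In its 7 genes at a log2 CPM of 1 or more it was -0.55, from -0.83 for *Slc29a3* to -0.11 for *Pbld1*. *Pbld1* was counted in this list, but nothing shown here gives it such a function. *Psap*, whose product is cut into the saposins that activate lysosomal sphingolipid hydrolases, was at 154 and 156 TPM in WT and 105 and 109 TPM in KO at 0 h. Its ratio was 0.681, close to those of the sphingosine phosphate lyase gene *Sgpl1* (0.684), the epimerase gene *Dse* (0.684) and the neutral sphingomyelinase gene *Smpd2* (0.620).

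The 5 brakes on growth and nutrient signalling had a median of -0.56, from -0.71 for *Sirt1* to -0.36 for *Foxo3*. The translation repressor gene *Eif4ebp2* had a ratio of 0.630, *Sesn1* 0.680 and *Ddit4* 0.714, the last a gene for an inhibitor of mTORC1. Cytoskeleton, adhesion and kinase genes (18 tested) had a median of -0.72, and the 13 of them at a log2 CPM of 1 or more ran from -1.20 for *Col13a1* to -0.11 for *Fyn*. *Gja1*, the gap junction protein connexin 43, was at 109 and 114 TPM in WT and 52.0 and 58.4 TPM in KO at 0 h, with a ratio of 0.570 over all times. *Pald1*, *Mical1* and the actin regulator gene *Wasf1* had ratios of 0.609, 0.602 and 0.627. Ubiquitin ligases and related genes (6 tested) had a median of -0.64, or -0.71 in the 5 at a log2 CPM of 1 or more, with *Herc4* at 0.610, *Hace1* at 0.676 and *Anapc16*, of the anaphase-promoting complex, at 0.568. Small-molecule metabolism (9 tested) had a median of -0.73, or -0.64 in the 8 at a log2 CPM of 1 or more. The pyrophosphatase gene *Ppa1* had a ratio of 0.602 and the collagen hydroxylase gene *P4ha1* 0.685. *Amd1*, which codes for an enzyme of polyamine synthesis, had 0.688 and *Amd2* 0.810, but 90.9% of the words of *Amd2* occur in *Amd1*, itself a member, so the 2 cannot be told apart well. In addition, 26.7% of the words of *Amd1* and 28.6% of those of *Amd2* occur in genes outside the stretch.

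Genes on other chromosomes, or on chromosome 10 outside the stretch, whose products bind or resemble those of members were tested, since the choice of the stretch did not use them. Of 77 listed 76 were tested, and their median over all times was 0.06. An adjusted p under 0.05 in edgeR's quasi-likelihood test was reached by 3 (3.95%), all higher in KO, where 5.03% of all genes were called and 2.19% were higher. A share below that of all genes is no result about the list.

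Of the 3, *Sesn2* on chromosome 4, a stress-induced relative of the member *Sesn1*, differed most. It was at 66.7 and 65.7 TPM in WT and 81.0 and 81.7 TPM in KO at 0 h, 68.7 and 61.9 against 82.9 and 80.1 TPM at 24 h, and 52.9 and 49.0 against 56.3 and 66.8 TPM at 48 h. KO was higher in both libraries at each time, by 0.29 (SE 0.05, adjusted p = 0.0014 in edgeR), and limma on log2(TPM + 1) gave an adjusted p of 0.059. *Sec61a1*, the channel of the ER translocon that works with the member *Sec63*, was higher by 0.17 (SE 0.04, adjusted p = 0.021 in edgeR). *Cdc23* of the anaphase-promoting complex was higher by 0.18 (SE 0.05, adjusted p = 0.024 in edgeR). For the last pair limma gave adjusted p of 0.10 and 0.37. The 15 partners of *Hdac2* and *Asf1a* ran from -0.11 to 0.15 and none was called. *Hdac1*, the close relative of *Hdac2*, had -0.04 (SE 0.04).

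About as large a share of the members as of all genes was called with time, in both genotypes. In WT, 43 of 167 members (25.7%) differed between 48 h and 0 h at an adjusted p under 0.05 in edgeR, 15 higher and 28 lower at 48 h, where 23.6% of all genes were called, 11.1% higher and 12.5% lower. In KO it was 42 (25.1%), 17 higher and 25 lower, where 25.0% of all genes were called, 12.1% higher and 12.8% lower. The median change of the members was -0.10 in WT and -0.16 in KO, and that of all genes 0.02 and 0.01. The counts of members called varied when single libraries were left out. The 2 contrasts share no library. Called in both were 29 members, 67.4% of the WT calls and 69.0% of the KO calls, and all 29 went in the same direction. Over all genes 3089 were called in both, 75.0% of the WT calls and 71.0% of the KO calls, and 3085 of these went in the same direction.

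The largest rise among the called members of the 121 was that of *Unc5b*. It went from 5.80 and 5.38 TPM at 0 h to 25.5 and 22.8 at 24 h and 30.0 and 30.1 at 48 h in WT. In KO it went from 3.01 and 2.81 to 15.7 and 15.1 and then to 16.4 and 19.4 TPM. The log2 rise to 48 h was 2.38 (SE 0.13, adjusted p = 3.2e-11 in edgeR) in WT and 2.71 (SE 0.13, adjusted p = 5.9e-12 in edgeR) in KO.

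The transcriptional repressor gene *Bend3* rose by 1.03 (SE 0.10) in WT and 1.21 (SE 0.10) in KO, and *Rsph4a*, of the radial spoke of cilia, by 1.55 (SE 0.34) and 1.82 (SE 0.35). *Ccdc138* rose by 0.73 (SE 0.20) and 0.74 (SE 0.21). *Rnf217*, a ubiquitin ligase gene, rose by 2.23 (SE 0.60) in WT from under 1 TPM, and had 1.51 (SE 0.59, adjusted p = 0.068 in edgeR) in KO. The amino acid transporter gene *Slc16a10* rose by 1.21 (SE 0.43) in WT at an adjusted p of 0.047 in edgeR, and had 0.80 (SE 0.43, adjusted p = 0.20 in edgeR) in KO. In the RNA list *Ddx21* rose by 0.33 and 0.51.

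Of the genes that fell in WT the collagen gene *Col13a1* had the largest change, -2.75 (SE 0.78), from 3.63 and 2.46 to 0.579 and 0.622 TPM. In KO it had -1.82 (SE 0.77, adjusted p = 0.097 in edgeR). *Gm9803* fell by 2.17 (SE 0.49) in WT and had -0.27 (SE 0.46) in KO, with the shared sequence described above. *Cep85l* fell by 1.41 (SE 0.42) in WT and had -1.03 (SE 0.42) in KO. The pseudogene *Gm46223* fell by 1.19 (SE 0.20) in WT and by 1.33 (SE 0.20) in KO. *Tspyl4* fell by 1.19 (SE 0.35) and 1.18 (SE 0.35), and the sarcomere protein gene *Mypn* by 1.14 (SE 0.31) and 0.92 (SE 0.31).

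Among the abundant members *Sirt1* fell by 1.04 (SE 0.09, adjusted p = 3.3e-08 in edgeR) in WT and by 1.07 (SE 0.09, adjusted p = 1.7e-08 in edgeR) in KO. *Hk1* fell by 1.01 (SE 0.14) and 0.97 (SE 0.14), *Prdm1* by 1.08 (SE 0.19) and 0.96 (SE 0.20), and *Hdac2* by 0.62 (SE 0.09) and 0.69 (SE 0.09). Of the 12 members named as the largest rises and falls in WT, *Unc5b*, *Bend3*, *Rsph4a* and *Gm46223* stayed called when any 1 library was left out, and the other 8 lost the call in 2 to 10 of 12 such fits. By list, 7 of the 17 genes of chromatin and transcription fell in WT and none rose, where 12.5% of all genes fell and 11.1% rose. That list does not hold every such member. The transcriptional repressor gene *Bend3*, which rose by 1.03 in WT, is not on it. In the mitochondrial list, with *Sirt1* counted, 3 of 10 fell. In traffic 4 of 14 fell, among sphingolipid, lysosome and glycan genes 3 of 10 and among growth brakes 2 of 5. No gene of these lists rose. In RNA processing and translation 3 of 9 rose and 1 fell, in small-molecule metabolism 3 of 9 rose and 2 fell, and among cytoskeleton, adhesion and kinase genes 2 of 18 rose and 4 fell. Of DNA replication and repair 1 of 7 rose and of ubiquitin ligases 1 of 6, and none fell. The lists are short and share some genes, and no list was tested.

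Whether the KO/WT ratio itself changed with time was tested by the interaction of genotype and time. No member was called at 24 h or at 48 h by edgeR, and DESeq2 called 0 at both. In simulated data edgeR recovered 7 of 50 1.5-fold interactions at 48 h, so changes of that size would mostly be missed. At an unadjusted p under 0.05 there were 7 of the 167 members at 24 h and 6 at 48 h, where 5.91% and 5.76% of all genes had such a p. At an adjusted p under 0.05 edgeR called 0.0115% of all genes at 24 h and 0.0402% at 48 h. *Fyn* had the smallest p at 48 h, with an interaction of -0.94 (SE 0.28) and an adjusted p of 0.41 in edgeR. Without KO 24 h replicate 2, which leaves that group with the library that stood apart, 7 members were called at 24 h (*Ranbp2*, *Rev3l*, *H2afy2*, *Anapc16*, *Ascc1*, *Fam229b* and *Gm48269*), in a fit that called 5.71% of all genes. Without KO 24 h replicate 1 no member was called.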

How the data were processed

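The authors trimmed the paired reads of stranded mRNA libraries with Trimmomatic 0.33 and quantified transcripts with kallisto 0.43.1 (versions per the submitters' processing notes). The deposited files give for each transcript an estimated count, not normalized, and TPM, scaled by the authors' tool for effective length and to 1 total per library. Of 115270 transcripts 113580 matched GENCODE M21 (GRCm38), and the others held 0.659% to 0.709% of counts. Estimated counts were summed per gene and rounded. Intervals and floors (3 counts, 0.0779 to 0.1035 CPM) cover counting error only.

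Counts of 17424 genes were fitted in edgeR 4.0.16 (R 4.3.3; TMM, filterByExpr, robust quasi-likelihood, 1 mean for each of 6 groups), with Benjamini-Hochberg adjustment over all genes. On simulated data with 200 changed genes, it recovered 45 of 50 2-fold changes between 48 h and 0 h in WT and 24 of 50 2-fold interactions at 48 h. At 1.5-fold it recovered 23 of 50 and 7 of 50. Alternatives used DESeq2 1.42.0 and limma 3.58.1. The labels do not say whether replicates were separate cultures, and the study's supplement calls the samples of each time independent biological replicates. Same-numbered replicates did not deviate together (correlations 0.003, 0.051 and -0.009 at the 3 times).

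Words of 31 bases were taken from GENCODE M21 transcripts. Genes named are the departing members (at most 10 each way), the 6 largest rises and falls with time in WT, members called for an interaction, the 4 most abundant of each of 10 function lists, 3 genes at each side of each bound, partners called, and *Cidea*; others were chosen after their values were seen. The members and lists were chosen with earlier results of these data known.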

Additional observations from a re-analysis of the deposited data

Results flagged for a closer look

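*Fyn* stood out because both KO libraries were above both WT libraries at 0 h and below them at 48 h. The interaction of genotype and time at 48 h was -0.94 on the log2 scale, with an unadjusted p of 0.0024 and an adjusted p of 0.41 from edgeR's quasi-likelihood test over all genes, so the difference between the times did not pass the correction. No group had 4 or more libraries, so single libraries were not screened for distance from the rest of their group.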

How the results depend on the processing

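No result was classed as reversed under any alternative run. KO/WT differences near 0 did change sign when single libraries were left out. Over all times *Fam184a* ran from -0.17 to 0.10 and *Gm47356* from -0.27 to 0.02. *Gm48128* ran from -0.28 to 0.02 and *Gm47626* from -0.07 to 0.05. With limma on log2(TPM + 1) the members' medians were -0.49 at 0 h, -0.45 at 24 h, -0.52 at 48 h and -0.50 over all times, a pseudocount that draws low genes toward 0, and with log2(TPM + 0.1) they were -0.60, -0.57 and, over all times, -0.60. Members called lower in KO were then 4, 4 and 7 at 0, 24 and 48 h, or 4, 3 and 7 with 0.1. Members called with time were 23 in KO, or 24 in WT and 24 in KO with 0.1. No partner was called with either (0 and 0). DESeq2 called 7 partners, where it called 1207 of 17424 genes. Without a filter 6 partners were called, and 5 with at least 10 counts in every library. Apart from DESeq2, the shares of all genes called were not set beside these counts. Nothing is therefore read from them. The filter of at least 10 counts in every library gave a median of -0.64 at 48 h. Departing members numbered 4 with log2(TPM + 1), 4 at a distance of 0.6 and 11 at 0.4. Members sharing under 25% of their words outside the stretch, an alternative chosen after seeing the data, had medians of -0.66 at 24 h, -0.66 at 48 h and -0.68 over all times, with 5 departing. The cause of these differences was not tested.

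Leaving out each library in turn gave medians of -0.65 to -0.59 at 0 h, -0.74 to -0.58 at 24 h, -0.68 to -0.62 at 48 h and -0.72 to -0.61 over all times, and 6 to 11 departing members. Members called lower in KO were 26 to 63 at 0 h (26 and 30 without KO 0 h replicate 1 or 2), 28 to 81 at 24 h (28 and 31 without WT 24 h replicate 1 or 2, 81 without KO 24 h replicate 2), 25 to 65 at 48 h (25 without either KO 48 h library, 29 without WT 48 h replicate 2) and 81 to 102 over all times. Members called with time were 23 to 49 in WT, lowest without WT 48 h replicate 1 (23) and WT 0 h replicate 1 (28), and 26 to 54 in KO, lowest without KO 48 h replicate 1 (26). Interaction calls were 0 to 7 at 24 h and 0 to 0 at 48 h, and partners called 1 to 11, 1 of them without KO 0 h replicate 2, WT 0 h replicate 1, WT 24 h replicate 1 or WT 48 h replicate 2, and 11 without KO 24 h replicate 2. A lone library left in a group is assumed to vary like the others.

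With the replicate number as a block, members called were 41 with time in WT and 42 in KO, departing members 8, partners called 3 and the median over all times -0.65; *Slc16a10* (adjusted p = 0.056 in edgeR) lost its call. The replicates share only a number. Of 12 fits that left out 1 library, *Slc16a10* lost its call with time in 10, *Cep85l* and *Tspyl4* in 4 each, *Ccdc138* and *Mypn* in 3 each, and *Col13a1*, *Gm9803* and *Rnf217* in 2 each; *Sec61a1* lost its KO call in 6 and *Cdc23* in 7. With limma all 3 partners lost theirs. The 3 times had 2 libraries per group, which limits every value to the spread of these pairs, and members under a log2 CPM of 1 could not be placed against the common ratio at this depth.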
